A study of Mus musculus with 4 samples.

Results

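The synthesis of androgens and estrogens was followed through 6 genes, Cyp17a1, Cyp19a1, Hsd17b1, Por, Srd5a1 and Hsd11b2, of the 32285 genes counted in single cells of the mouse ovary. The list follows the enzymes' known roles, but it was drawn up with earlier results of these data known. Its rule asked for unique molecular identifiers (UMIs, 1 per captured transcript) in all 4 libraries, which each of the 6 had. No other measured value entered the rule. The ovaries came from 8-week-old female littermates, 2 libraries, Fosl2F/F 1 and Fosl2F/F 2, from mice with floxed Fosl2 alleles and no Cre, and 2 libraries labelled Fosl2cKO, here named Fosl2cKO 1 and Fosl2cKO 2 for their labels, from Cyp19a1-Cre; Fosl2F/F mice, so both groups carry the floxed alleles and differ by the Cre transgene. The purpose of the comparison was to see what the loss of Fosl2, a subunit of the AP-1 transcription factor, does in granulosa cells (GCs). The Cre is driven by the promoter of Cyp19a1, itself a member of the list, and whether the transgene contributes to Cyp19a1 UMIs was not tested. By the study's description, vaginal smears of the mice taken for sequencing showed estrus; the stage of each library's mouse was not listed.

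In the follicle, androgens and estrogens are made by a pair of neighbouring cell types. Theca cells, under luteinizing hormone, carry cholesterol to androgens through the 17-alpha-hydroxylase and 17,20-lyase encoded by Cyp17a1, which takes its electrons from cytochrome P450 oxidoreductase (Por). Granulosa cells, under follicle-stimulating hormone, turn the androgens into estrogens with aromatase (Cyp19a1), and Hsd17b1 reduces the weak estrogen estrone to estradiol. Srd5a1 reduces the double bond of testosterone and progesterone (5-alpha-reduction), and Hsd11b2 inactivates glucocorticoids.

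After filters 41538 cells were kept, 6760 to 19575 a library, with 104303269 to 111314200 UMIs a library and a median of 3655 (Fosl2F/F 2) to 12465 UMIs a cell, so Fosl2F/F 2 held more and shallower cells. Clustering was done without the 6 genes, and clusters were named "-like" only from marker genes other than the 6. The classes used here were granulosa-like (15809 cells), theca-like (1815 cells), interstitial-like (3711 cells), early theca-like (4887 cells) and luteal-like cells (500 cells), and 1541 cells of 1 further cluster, number 11, led by Runx2, Hsd17b7 and Lhcgr, were left unnamed because interstitial and luteal markers scored close to each other in it. Theca-like cells held Cyp11a1 (2224 to 6044 of 1e6 UMIs of the class, CPM) and Aldh1a1 (1460 to 2683 CPM), but the hormone gene Insl3, a defining theca marker, was near 0 there in all libraries (4.15 to 7.85 CPM). The 7 genes of the theca marker list summed to 8678 to 14274 CPM in theca-like cells and to more in interstitial-like cells in every library (15437 to 18104 CPM), where Cyp11a1 was also higher (5598 to 8731 CPM). The list thus does not set the theca-like cells apart from the interstitial-like cells. No cluster met the limits for theca-like cells at the coarser or finer clustering resolution or without integration. The check of the labels was not passed by both libraries labelled Fosl2cKO. Fosl2 in granulosa-like cells measured 161 CPM in Fosl2F/F 1, 167 CPM in Fosl2F/F 2, 167 CPM in Fosl2cKO 1 and 115 CPM in Fosl2cKO 2. Fosl2cKO 1 was thus not below the Fosl2F/F libraries. In mural-like GCs, a subclass of the granulosa-like cells, Fosl2 measured 246, 221, 301 and 146 CPM in the same order. Fosl2cKO 2 was also the lowest library in early theca-like cells (216, 331, 333 and 186 CPM), but the highest in interstitial-like cells (306, 326, 328 and 385 CPM). UMIs were counted at the 3′ ends of transcripts, which does not tell whether the floxed coding exons were removed. Between 15 and 81 cell barcodes were shared by a pair of libraries, at most 0.763% of the smaller one. Ambient RNA was judged by endothelial-like and macrophage-like cells, which are not known to make these steroids.

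On GRCm38 (GENCODE M21), Cyp17a1 lies on chromosome 19 (46667165 to 46673172, minus strand, up to 8 exons), Cyp19a1 on chromosome 9 (54165937 to 54268110, minus strand, up to 9 exons), Hsd17b1 on chromosome 11 (101078411 to 101080527, plus strand, 6 exons), Por on chromosome 5 (135670033 to 135735326, plus strand, up to 16 exons), Srd5a1 on chromosome 13 (69573449 to 69611442, minus strand, 5 exons) and Hsd11b2 on chromosome 8 (105518755 to 105523988, plus strand, 5 exons). Srd5a1 overlaps Nsun2 on the opposite strand and the sense-overlapping transcript Gm17108, and Por overlaps the non-coding RNA Gm43091 and the pseudogene Gm16061 on the opposite strand, while Cyp17a1, Cyp19a1, Hsd17b1 and Hsd11b2 overlap no other annotated gene. RefSeq (GRCm38.p6) gave promoter windows, 250 bases before to 50 bases after an annotated start, for 3 of the 6 genes, Cyp19a1, Por and Srd5a1. They are printed 5′ to 3′ on the gene's strand, with the 50 bases after the start in capitals, because the base composition and the motif search given after them were read from these windows.
Cyp19a1 start 1, chr9:54193694-54193993: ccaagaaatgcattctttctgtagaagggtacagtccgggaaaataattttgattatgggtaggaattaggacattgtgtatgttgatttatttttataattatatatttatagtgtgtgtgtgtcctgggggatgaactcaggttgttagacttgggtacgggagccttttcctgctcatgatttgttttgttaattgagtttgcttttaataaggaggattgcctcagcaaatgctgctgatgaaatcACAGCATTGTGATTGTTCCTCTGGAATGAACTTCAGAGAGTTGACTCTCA
Cyp19a1 start 2, chr9:54228865-54229164: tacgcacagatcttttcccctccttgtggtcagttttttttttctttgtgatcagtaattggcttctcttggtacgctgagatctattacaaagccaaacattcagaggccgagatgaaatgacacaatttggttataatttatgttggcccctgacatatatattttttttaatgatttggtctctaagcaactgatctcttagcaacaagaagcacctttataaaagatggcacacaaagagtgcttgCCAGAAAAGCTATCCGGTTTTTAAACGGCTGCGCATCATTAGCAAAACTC
Cyp19a1 start 3, chr9:54268115-54268414: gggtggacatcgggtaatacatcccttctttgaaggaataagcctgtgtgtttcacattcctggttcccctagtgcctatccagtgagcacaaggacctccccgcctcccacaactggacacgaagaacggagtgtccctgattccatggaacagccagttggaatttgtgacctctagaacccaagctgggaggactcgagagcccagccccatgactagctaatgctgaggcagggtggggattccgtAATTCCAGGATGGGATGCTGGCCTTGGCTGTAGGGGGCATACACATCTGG
Por, chr5:135688895-135689194: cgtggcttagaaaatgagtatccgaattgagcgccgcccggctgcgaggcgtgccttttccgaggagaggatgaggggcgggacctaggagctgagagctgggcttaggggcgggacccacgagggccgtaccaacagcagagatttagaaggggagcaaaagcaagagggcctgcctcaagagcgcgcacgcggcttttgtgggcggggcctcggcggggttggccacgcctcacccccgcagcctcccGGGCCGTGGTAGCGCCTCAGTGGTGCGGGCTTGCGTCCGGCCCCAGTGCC
Srd5a1, chr13:69611414-69611713: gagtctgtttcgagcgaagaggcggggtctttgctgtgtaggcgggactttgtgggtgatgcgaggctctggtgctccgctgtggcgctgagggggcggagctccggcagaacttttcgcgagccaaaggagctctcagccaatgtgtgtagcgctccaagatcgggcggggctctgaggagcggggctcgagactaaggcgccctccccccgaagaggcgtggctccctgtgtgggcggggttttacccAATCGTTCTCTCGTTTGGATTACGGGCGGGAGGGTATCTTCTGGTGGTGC
The Por and Srd5a1 windows hold 67.3% and 63.0% G or C and 27 and 24 CpG sites, and the Cyp19a1 windows 37.7%, 38.3% and 54.7% and 2, 6 and 6 CpG sites, against medians of 52.7% and 7 over all 32851 windows. A search of both strands for TGANTCA (AP-1), AAGGTCA (SF-1), TGACGTCA (the cyclic AMP response element) and AGATAA, a binding site of GATA factors, found 0 matches in the 5 windows. Of all windows, 7.81%, 4.72%, 1.79% and 11.2% held these motifs. UMIs at the 3′ end do not tell which of the Cyp19a1 starts was used.

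**Figure D1:**
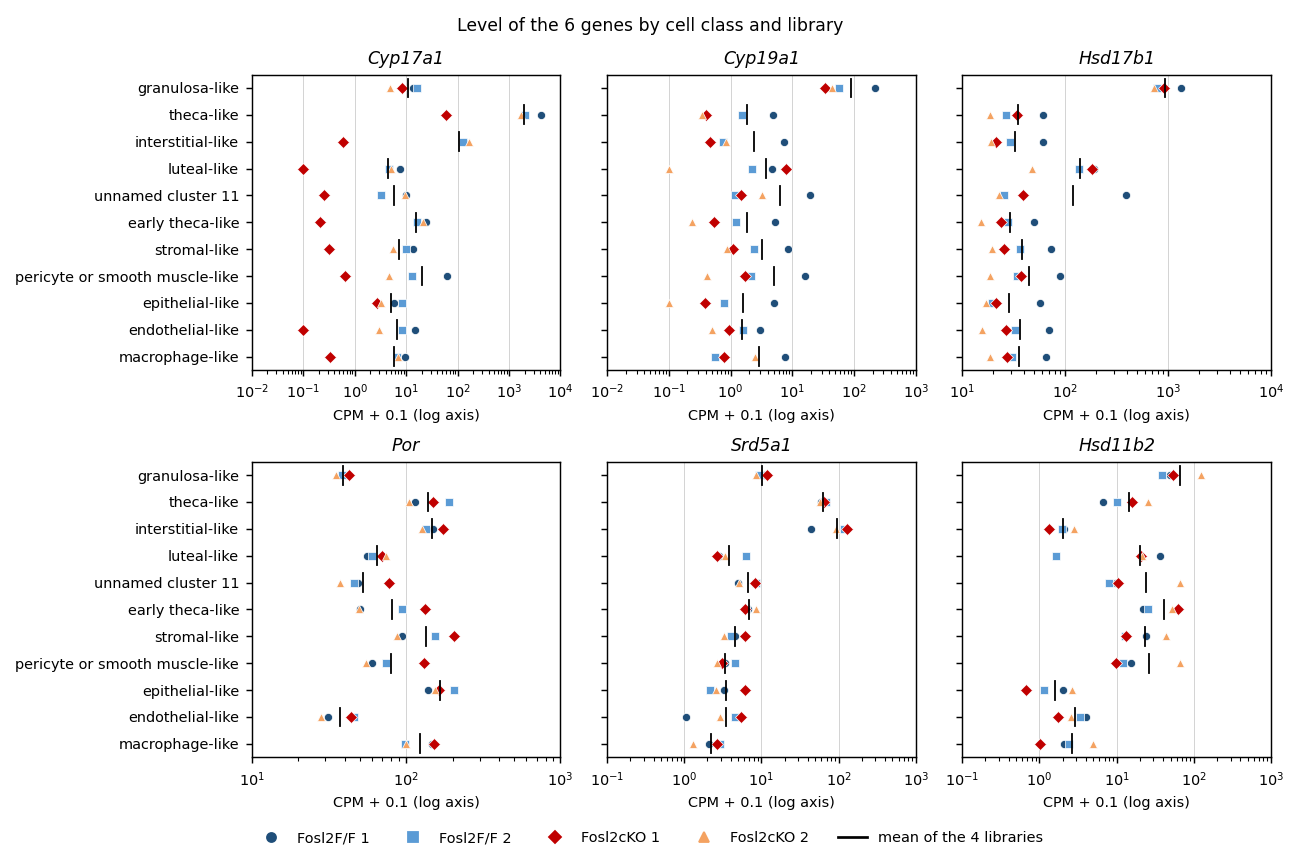
Level of each of the 6 genes (CPM + 0.1, log axis, 1 panel a gene) in 10 named classes and the unnamed cluster 11, with 1 point a library and a bar at the mean of the 4 libraries. Cyp17a1 is highest in theca-like cells in every library, with Fosl2cKO 1 at 60.2 CPM there. Cyp19a1 and Hsd17b1 are highest in granulosa-like cells, and Srd5a1 in interstitial-like and theca-like cells.

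Between the conditions, Cyp17a1 in theca-like and granulosa-like cells and Cyp19a1 in granulosa-like cells were lower in both libraries labelled Fosl2cKO than in either Fosl2F/F library. Hsd11b2 was higher in both in granulosa-like, early theca-like and theca-like cells and in mural-like GCs. No member passed the test by edgeR in any class. Ovaries came from 2 females a group, and the p-values set the difference of the groups against the spread of the libraries within a group. The test was edgeR's quasi-likelihood test on UMIs summed by class and library, and called genes had a Benjamini-Hochberg adjusted p under 0.1 with a log2 fold change of more than 0.25 in either direction. In granulosa-like cells 0 of 6 members were called by edgeR and 3 had an unadjusted p under 0.05, while 0.00579% of 17270 genes tested were called. In theca-like cells 0 of 5 were called and 1 had an unadjusted p under 0.05, beside 0.0234% of all genes called. In interstitial-like cells 0 of 5 were called and 1 had an unadjusted p under 0.05, beside 0.198%. In early theca-like cells 0 of 6 were called and 3 had an unadjusted p under 0.05, beside 0.0492%. In each of the 6 named subclasses of granulosa-like cells 0 of 6 members were called. In mural-like, mitotic-like, glycolytic-like, atretic-like, growing follicle-like and cumulus-like GCs 2, 3, 3, 1, 0 and 2 had an unadjusted p under 0.05, beside 0.00787%, 0.0069%, 0.00812%, 0.00764%, 0.00798% and 0.0152% of all genes called. Luteal-like cells were not tested, because Fosl2cKO 1 had 15 of them, under the 20 cells set as the least.

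DESeq2, run on the same sums, called 1 member in granulosa-like cells (Cyp17a1) and 2 in early theca-like cells (Cyp19a1 and Hsd11b2), beside 1.01% and 0.436% of all genes. Cyp19a1 in early theca-like cells had 44, 14, 4 and 2 UMIs in Fosl2F/F 1, Fosl2F/F 2, Fosl2cKO 1 and Fosl2cKO 2. DESeq2 called 0 in theca-like and 0 in interstitial-like cells, beside 0.226% and 0.301%. In the 6 GC subclasses, in the order above, it called 1, 1, 2, 0, 0 and 0 members, beside 0.606%, 1.16%, 1.35%, 0.336%, 0.447% and 0.449% of all genes. With no filter on low counts, edgeR called 2 members in granulosa-like (Cyp17a1 and Cyp19a1), 3 in theca-like, 2 in interstitial-like and 3 in early theca-like cells, beside 1.07%, 0.804%, 1.02% and 1.11% of all genes. With 2 libraries a group, groups that do not overlap are common. This held for 3 members in granulosa-like, 3 in theca-like, 1 in interstitial-like and 3 in early theca-like cells. Of all genes with 20 or more UMIs, 31.6%, 30.4%, 28.7% and 32.3% did the same in those classes. In the GC subclasses it held for 3, 3, 4, 3, 3 and 3 members, beside 32.0%, 36.7%, 41.9%, 34.8%, 32.6% and 30.7% of all genes.

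Cyp17a1 was a gene of theca-like cells, and 1 of the 4 libraries held little of it. Its level in theca-like cells was 4107 CPM in Fosl2F/F 1, 2075 CPM in Fosl2F/F 2, 60.2 CPM in Fosl2cKO 1 and 1690 CPM in Fosl2cKO 2. Fosl2F/F 1, Fosl2F/F 2 and Fosl2cKO 2 thus lay within 2.43-fold of each other, while Fosl2cKO 1 was 28.1-fold below the lowest of them. The groups did not overlap, but the 2 libraries labelled Fosl2cKO differed from each other by as much as that, and the fitted change (libraries labelled Fosl2cKO against Fosl2F/F, ± standard error, here and in all later changes) was -1.90 ± 1.01 with an adjusted p of 1 by edgeR on the log2 scale. In interstitial-like cells, the steroidogenic cells outside follicles, Cyp17a1 measured 136 CPM in Fosl2F/F 1, 128 CPM in Fosl2F/F 2, 0.489 CPM in Fosl2cKO 1 and 170.0 CPM in Fosl2cKO 2. There Fosl2cKO 2 was the highest and Fosl2cKO 1 was at 8 UMIs in 756 cells, so the groups overlapped (log2 fold change -0.69 ± 1.04, adjusted p = 1 by edgeR). Without Fosl2cKO 1, the log2 fold change became 0.32 in interstitial-like cells and -0.95 in theca-like cells, and without Fosl2cKO 2 it became -5.79 in theca-like cells. Each of these fits leaves 1 library labelled Fosl2cKO, so no spread within that group enters it.

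The low level of Fosl2cKO 1 was seen cell by cell. When each cell was thinned to 2000 UMIs, the share of theca-like cells with a Cyp17a1 UMI was 69.4% in Fosl2F/F 1, 68.5% in Fosl2F/F 2, 9.09% in Fosl2cKO 1 and 57.1% in Fosl2cKO 2, and the unthinned shares were 82.6%, 74.5%, 25.1% and 70.9% in the same order. The 95% Wilson interval of Fosl2cKO 1 (5.59 to 14.5%, 15 of 165 cells) lay below that of Fosl2cKO 2 (52.5 to 61.6%, 253 of 443 cells). These intervals cover counting error only. Cells with over 10 Cyp17a1 UMIs after thinning made up 27.8% and 10.2% of theca-like cells in Fosl2F/F 1 and Fosl2F/F 2 and 5.87% in Fosl2cKO 2, and were 0 of 165 in Fosl2cKO 1, which allows a share of up to 1.82%. The theca-like cells of Fosl2cKO 1 also held other steroidogenic genes: Cyp11a1, the first enzyme of steroid synthesis, measured 6044 CPM in Fosl2F/F 1, 2664 CPM in Fosl2F/F 2, 2982 CPM in Fosl2cKO 1 and 2224 CPM in Fosl2cKO 2. Hsd3b1, the next enzyme, measured 3072 CPM in Fosl2F/F 1, 1902 CPM in Fosl2F/F 2, 2295 CPM in Fosl2cKO 1 and 2194 CPM in Fosl2cKO 2. Both genes are on the marker list that named the class, so their presence in it was in part set by the naming. In these 2 genes and in Aldh1a1 Fosl2cKO 1 was not the lowest library, whereas it was the lowest in the other 4 genes of the theca marker list and in Lhcgr. Fdx1, an electron carrier of steroid synthesis, measured 2819 CPM in Fosl2F/F 1, 3068 CPM in Fosl2F/F 2, 2049 CPM in Fosl2cKO 1 and 2505 CPM in Fosl2cKO 2, and Nr5a1, the steroidogenic factor SF-1, measured 177, 129, 122 and 162 CPM in the same order. Aldh1a7 was at 5.93 CPM and Insl3 at 4.15 CPM in Fosl2cKO 1, against lowest values of 8.76 and 4.87 CPM in the others. Lhcgr, the receptor of luteinizing hormone, measured 964 CPM in Fosl2F/F 1, 423 CPM in Fosl2F/F 2, 208 CPM in Fosl2cKO 1 and 409 CPM in Fosl2cKO 2. In endothelial-like cells, a background for RNA from other cells, 2.68%, 1.09%, 0% and 0% had a Cyp17a1 UMI, where 0 of 158 cells of Fosl2cKO 1 and 0 of 164 cells of Fosl2cKO 2 allow a share of up to 1.90% and 1.83%, a limit that holds for the other members at 0% there too.

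**Figure D2:**
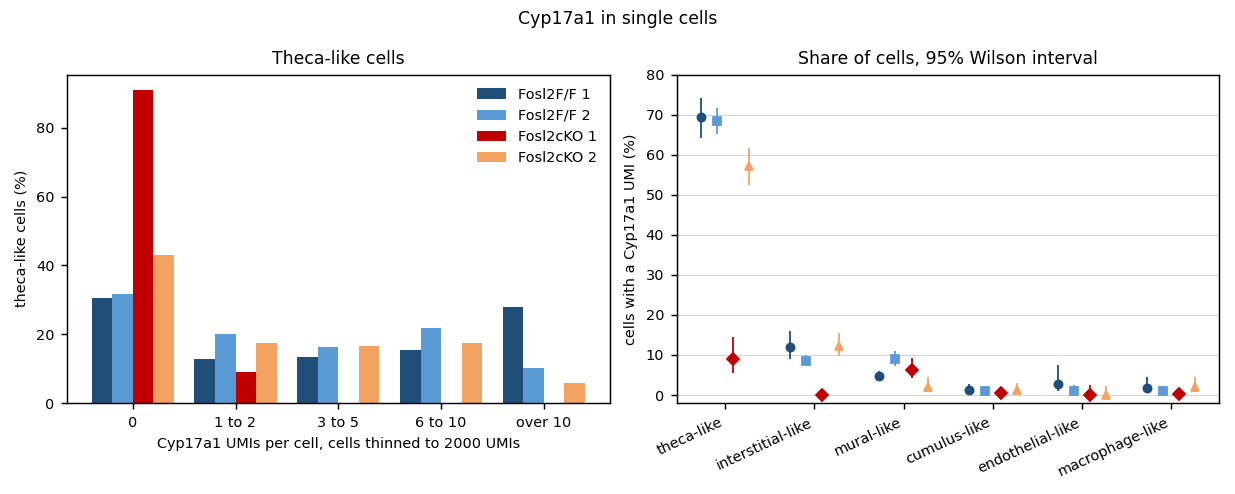
Left, theca-like cells by their Cyp17a1 UMIs after each cell was thinned to 2000 UMIs (percent of the cells of a library, bars from 0); right, the share of cells with a Cyp17a1 UMI in 6 classes, with 95% Wilson intervals. Fosl2cKO 1 has 90.9% of its theca-like cells at 0 UMIs against 30.6 to 42.9% in the other 3 libraries, while its mural-like GCs (6.30%) lie within the range of the other libraries.

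Among the granulosa-like subclasses, Cyp17a1 had its highest mean in mural-like GCs. In mural-like GCs, which line the wall of the antral follicle next to the theca, the level was 26.8 CPM in Fosl2F/F 1, 62.3 CPM in Fosl2F/F 2, 39.7 CPM in Fosl2cKO 1 and 8.16 CPM in Fosl2cKO 2, against 3.53 to 8.63 CPM in cumulus-like GCs, which surround the oocyte, and 0.966 to 11.4 CPM in glycolytic-like GCs. Fosl2F/F 2 was the highest and Fosl2cKO 2 the lowest, and the groups overlapped (log2 fold change -0.91 ± 0.66, adjusted p = 0.999 by edgeR). In Fosl2cKO 1, mural-like GCs held 294 of the 641 Cyp17a1 UMIs of all classes (45.9%) in 5.16% of its cells, against 0.255 to 2.26% in the other 3 libraries. After thinning, the share of mural-like GCs with a Cyp17a1 UMI was 4.82% in Fosl2F/F 1, 8.99% in Fosl2F/F 2, 6.30% in Fosl2cKO 1 and 2.04% in Fosl2cKO 2, against 2.68%, 1.09%, 0% and 0% of endothelial-like cells in the same order. The 15 mural-like GCs of Fosl2cKO 1 with 5 or more Cyp17a1 UMIs, looked at after the values were seen, held Inha at 6856 CPM, Hsd17b1 at 1340 CPM and the stromal gene Dcn at 7.23 CPM, beside 6995, 1386 and 10.9 CPM in mural-like GCs without a Cyp17a1 UMI and 232, 33.8 and 149 CPM in theca-like cells of that library. Their median depth was 24779 UMIs a cell, against 16242 UMIs in mural-like GCs without Cyp17a1. The same medians were 14515 against 10887 UMIs in Fosl2F/F 1 and 5979 against 4145.5 UMIs in Fosl2F/F 2. Such cells were picked on unthinned UMIs, which favours deeper cells. The Cyp11a1 level in those of Fosl2cKO 1 was 781 CPM, against 412 CPM in mural-like GCs without Cyp17a1. In Fosl2F/F 1 the same levels were 507 CPM in 15 such cells against 685 CPM. Fshr, the receptor of follicle-stimulating hormone and a granulosa marker, was lower in those of Fosl2cKO 1, at 50.6 CPM (21 UMIs) against 156 CPM in mural-like GCs without Cyp17a1 and 1.48 CPM in theca-like cells, and in Fosl2F/F 1 it was at 878 against 794 CPM. The 13 such cells of Fosl2F/F 2 held Cyp11a1 at 695 against 416 CPM and Fshr at 134 (11 UMIs) against 301 CPM, so neither difference had 1 direction in the 3 libraries.

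Over all granulosa-like cells Cyp17a1 was lower in the libraries labelled Fosl2cKO, at 13.7 CPM in Fosl2F/F 1, 16.0 CPM in Fosl2F/F 2, 8.29 CPM in Fosl2cKO 1 and 4.79 CPM in Fosl2cKO 2, with no overlap of the groups (log2 fold change -1.22 ± 0.29 with an adjusted p of 0.65 by edgeR). DESeq2 called it (adjusted p = 0.0293). Outside the steroidogenic classes it was also lower: endothelial-like cells held 14.5, 8.27, 0 and 2.85 CPM and stromal-like cells 13.3, 9.81, 0.218 and 5.48 CPM in the order Fosl2F/F 1, Fosl2F/F 2, Fosl2cKO 1 and Fosl2cKO 2. Mitotic-like GCs, at 11.4, 12.4, 3.54 and 4.02 CPM, were near those levels in the Fosl2F/F libraries and above the endothelial-like level in both libraries labelled Fosl2cKO. The part of free RNA from theca cells in these values was not tested.

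Por, the electron donor that Cyp17a1 and Cyp19a1 share, was counted in every class. Its highest means (± SD over the 4 libraries, n = 4, here and in later means) were in epithelial-like (165 ± 28.6 CPM), interstitial-like (146 ± 21.3 CPM), theca-like (139 ± 38.8 CPM) and stromal-like cells (135 ± 55.3 CPM), and the gaps between these neighbours in the order were smaller than the spread over libraries. Granulosa-like cells stood at 39.1 ± 3.34 CPM, close to endothelial-like cells (37.2 ± 9.07 CPM). In theca-like cells Por measured 113 CPM in Fosl2F/F 1, 189 CPM in Fosl2F/F 2, 149 CPM in Fosl2cKO 1 and 104 CPM in Fosl2cKO 2, where the groups overlapped (log2 fold change -0.34 ± 0.32 with an adjusted p of 1 by edgeR), and Fosl2cKO 1, low in Cyp17a1, lay between the others. In mural-like GCs, where it was highest among the named GC subclasses, it measured 58.8 CPM in Fosl2F/F 1, 58.0 CPM in Fosl2F/F 2, 51.8 CPM in Fosl2cKO 1 and 44.1 CPM in Fosl2cKO 2. The groups did not overlap there, and the change was -0.34 ± 0.20 with an adjusted p of 0.999 by edgeR on the log2 scale.

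Srd5a1, the 5-alpha-reductase, was a gene of interstitial-like and theca-like cells. Its level in interstitial-like cells was 44.3 CPM in Fosl2F/F 1, 117 CPM in Fosl2F/F 2, 131 CPM in Fosl2cKO 1 and 94.0 CPM in Fosl2cKO 2. Its level in theca-like cells was 60.0 CPM in Fosl2F/F 1, 67.7 CPM in Fosl2F/F 2, 64.0 CPM in Fosl2cKO 1 and 57.4 CPM in Fosl2cKO 2. The 4 libraries lay within 1.18-fold of each other in theca-like cells, whereas in interstitial-like cells Fosl2F/F 1 stood below the other 3. The other named classes had lower means, with granulosa-like cells at 10.0 ± 1.41 CPM, luteal-like cells at 3.69 ± 1.66 CPM and endothelial-like cells at 3.43 ± 1.95 CPM. The change with condition was 0.45 ± 0.36 with an adjusted p of 1 by edgeR in interstitial-like cells and -0.15 ± 0.26 (adjusted p = 1 by edgeR) in theca-like cells on the log2 scale. Without Fosl2F/F 2 the log2 fold change in interstitial-like cells was 1.29, and without Fosl2F/F 1 it was -0.06, each with 1 Fosl2F/F library left. Within theca-like cells of the 3 libraries rich in Cyp17a1 Srd5a1 was met more often beside Cyp17a1: after thinning, 29 of 220, 74 of 549 and 33 of 253 cells with a Cyp17a1 UMI (Fosl2F/F 1, Fosl2F/F 2 and Fosl2cKO 2) had a Srd5a1 UMI, against 5.16%, 5.14% and 4.21% of cells without. For Por the shares were 21.8%, 29.5% and 17.8% against 18.6%, 30.8% and 18.4%. In Fosl2cKO 1, 2 of 15 cells with a Cyp17a1 UMI had a Srd5a1 UMI, against 10.0% of cells without. Before thinning, theca-like cells without a Cyp17a1 UMI held Cyp11a1 at 519 CPM in Fosl2F/F 1, 669 CPM in Fosl2F/F 2 and 2205 CPM in Fosl2cKO 1. Cells with it held 6645, 3097 and 4193 CPM. Dcn was at 385, 303 and 150 CPM without and 81.6, 103 and 148 CPM with it. The part of these differences in the Srd5a1 shares was not tested. Cells of 1 library share their source, so the shares are a description.

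Aromatase and the estrogenic Hsd17b1 were genes of granulosa-like cells. These held 98.4%, 96.1%, 97.3% and 97.8% of all Cyp19a1 UMIs and 97.2%, 93.0%, 96.3% and 97.1% of all Hsd17b1 UMIs in Fosl2F/F 1, Fosl2F/F 2, Fosl2cKO 1 and Fosl2cKO 2, in 32.6 to 56.1% of the cells. Among the named subclasses, Cyp19a1 was highest in mural-like GCs, at 517 CPM in Fosl2F/F 1, 168 CPM in Fosl2F/F 2, 80.9 CPM in Fosl2cKO 1 and 157 CPM in Fosl2cKO 2. Its means in them then went down through mitotic-like (116 ± 103 CPM), glycolytic-like (64.8 ± 46.2 CPM), growing follicle-like (10.5 ± 4.11 CPM), atretic-like (8.35 ± 3.09 CPM) and cumulus-like GCs (5.46 ± 3.06 CPM). Among the last 3, neighbours in the order lay closer than the larger of their SDs, while growing follicle-like GCs stood above cumulus-like GCs in 4 of 4 libraries. The mean level of Hsd17b1 was 1636 ± 343 CPM in mural-like, 1367 ± 366 CPM in glycolytic-like, 1276 ± 365 CPM in mitotic-like, 492 ± 151 CPM in growing follicle-like, 360.4 ± 54.7 CPM in atretic-like and 138 ± 29.4 CPM in cumulus-like GCs. After thinning, 97.8%, 93.5%, 92.8% and 92.5% of mural-like GCs had an Hsd17b1 UMI and 52.0%, 24.9%, 13.8% and 22.1% a Cyp19a1 UMI in the 4 libraries. In luteal-like cells, which arise from the ruptured follicle, Hsd17b1 measured 191 CPM in Fosl2F/F 1, 135 CPM in Fosl2F/F 2, 182 CPM in Fosl2cKO 1 and 47.9 CPM in Fosl2cKO 2. Cyp19a1 was there at 0 to 7.79 CPM, on 25 UMIs in all.

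**Figure D3:**
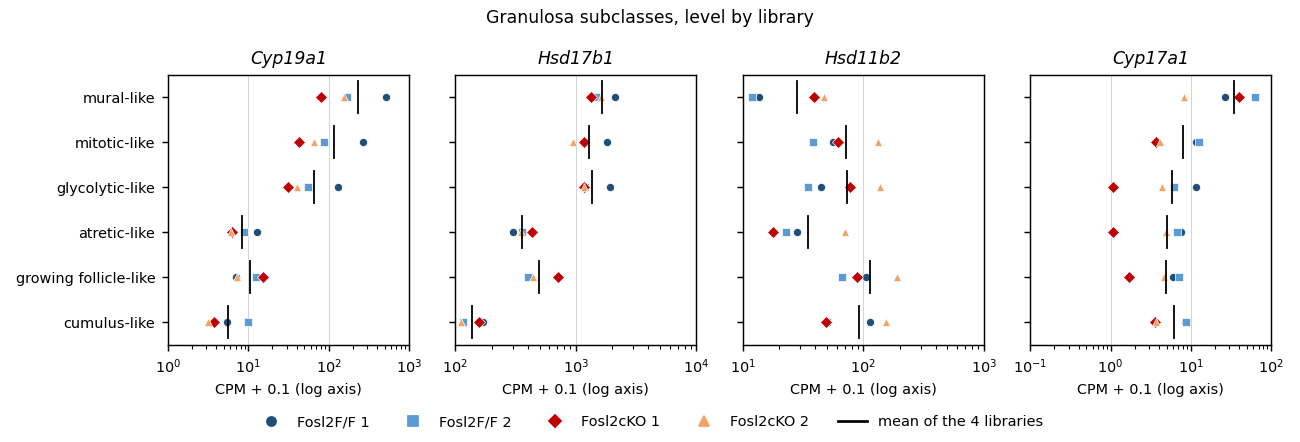
Level (CPM + 0.1, log axis) of Cyp19a1, Hsd17b1, Hsd11b2 and Cyp17a1 in the 6 named subclasses of granulosa-like cells, 1 point a library and a bar at the mean. Cyp19a1 and Cyp17a1 are highest in mural-like GCs, where Hsd11b2 is at its lowest mean (27.9 CPM), and Fosl2cKO 1 and Fosl2cKO 2 lie above Fosl2F/F 1 and Fosl2F/F 2 for Hsd11b2 in mural-like GCs.

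Cyp19a1 in granulosa-like cells was lower in each library labelled Fosl2cKO than in each Fosl2F/F library, and the difference did not pass the test. Its level over all granulosa-like cells was 219 CPM in Fosl2F/F 1, 57.8 CPM in Fosl2F/F 2, 33.5 CPM in Fosl2cKO 1 and 43.8 CPM in Fosl2cKO 2. Mural-like GCs were 1398 of 4575 granulosa-like cells in Fosl2F/F 1 and 980 of 6632 in Fosl2F/F 2. They were 349 of 2205 in Fosl2cKO 1 and 296 of 2397 in Fosl2cKO 2. The part of this mix of subclasses in the level was not tested. Cyp19a1 in Fosl2F/F 1 stood 3.78-fold above Fosl2F/F 2, and the groups did not overlap (log2 fold change -1.89 ± 0.59 with an adjusted p of 0.969 by edgeR). The value rests largely on Fosl2F/F 1: without that library it was -0.55, and without each of the others it was -2.57 to -1.69. The same held in the subclasses that express it most: the fitted change was -1.58 ± 0.54 in mural-like, -1.73 ± 0.50 in mitotic-like and -1.48 ± 0.40 in glycolytic-like GCs on the log2 scale (adjusted p = 0.956, 0.54 and 0.361 by edgeR). Without Fosl2F/F 1 the changes in these subclasses were -0.54, -0.68 and -0.68. Inha and Lhcgr, which GCs also express, were higher in both Fosl2F/F libraries of mural-like GCs too, and highest in Fosl2F/F 1. Inha measured 12988, 8895, 6812 and 7161 CPM and Lhcgr 645, 278, 163 and 129 CPM in Fosl2F/F 1, Fosl2F/F 2, Fosl2cKO 1 and Fosl2cKO 2. Fdx1 in mural-like GCs (1188, 856, 495 and 320 CPM) and Inhba over all granulosa-like cells (2665, 1110, 856 and 954 CPM) followed this order as well. Some other values of GC genes did not. Inhba in mural-like GCs overlapped between the groups (5645, 3388, 2895 and 3430 CPM), as did Fshr (555, 210, 128 and 548 CPM) and Inhbb (882, 610, 634 and 682 CPM) over all granulosa-like cells. Amh there was higher in both libraries labelled Fosl2cKO (133, 186, 248 and 236 CPM). In mural-like GCs the nearest libraries of the 2 groups were Fosl2F/F 2 and Fosl2cKO 2, at 168 and 157 CPM. After thinning, the share of mural-like GCs with a Cyp19a1 UMI was 52.0% in Fosl2F/F 1, 24.9% in Fosl2F/F 2, 13.8% in Fosl2cKO 1 and 22.1% in Fosl2cKO 2. In endothelial-like cells it was 0.893%, 0.436%, 0% and 0%. In early theca-like cells the fit gave -3.62 ± 0.88 with an adjusted p of 0.344 by edgeR, on levels of 5.20, 1.12, 0.436 and 0.14 CPM. Endothelial-like cells held 0.407 to 2.89 CPM.

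The groups overlapped for Hsd17b1 in mural-like and mitotic-like GCs and over all granulosa-like cells. In glycolytic-like GCs, with the second highest mean, they did not, at 1916 CPM in Fosl2F/F 1, 1201 CPM in Fosl2F/F 2, 1177 CPM in Fosl2cKO 1 and 1173 CPM in Fosl2cKO 2, where the last 3 lay close together. Its level in mural-like GCs was 2123 CPM in Fosl2F/F 1, 1474 CPM in Fosl2F/F 2, 1338 CPM in Fosl2cKO 1 and 1611 CPM in Fosl2cKO 2, where Fosl2cKO 2 lay above Fosl2F/F 2, and the fitted change was -0.34 ± 0.26 with an adjusted p of 0.999 by edgeR. Over all granulosa-like cells the level was 1341 CPM in Fosl2F/F 1, 774 CPM in Fosl2F/F 2, 904 CPM in Fosl2cKO 1 and 731 CPM in Fosl2cKO 2, again with overlapping groups (log2 fold change -0.41 ± 0.30 with an adjusted p of 1 by edgeR), and without Fosl2F/F 1 the value was 0.11. In interstitial-like and early theca-like cells the fitted changes were larger (-1.18 ± 0.33 and -1.12 ± 0.34, adjusted p = 0.366 and 0.623 by edgeR), but the levels there (61.5, 28.9, 21.3 and 19.0 CPM and 49.6, 27.6, 23.6 and 15.1 CPM) were no higher than those of endothelial-like cells (69.5, 32.3, 26.5 and 15.5 CPM) in any library except Fosl2cKO 2, where interstitial-like cells were at 19.0 against 15.5 CPM. In the unnamed cluster 11, Hsd17b1 stood at 392 CPM in the 65 cells of Fosl2F/F 1 and at 22.7 to 39.0 CPM in the other 3 libraries.

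Hsd11b2, which protects cells from glucocorticoids, was spread over the granulosa-like subclasses in another order than Cyp19a1. Among the named subclasses its highest means were in growing follicle-like (113 ± 54.2 CPM) and cumulus-like GCs (92.0 ± 51.7 CPM), and its lowest in mural-like GCs (27.9 ± 17.9 CPM). This order did not hold in every library. In Fosl2cKO 1 cumulus-like GCs (49.2 CPM) lay below glycolytic-like (76.8 CPM) and mitotic-like GCs (61.5 CPM), and mural-like GCs (38.9 CPM) above atretic-like GCs (17.8 CPM). In mural-like GCs it was higher in the libraries labelled Fosl2cKO, at 13.5 CPM in Fosl2F/F 1, 11.8 CPM in Fosl2F/F 2, 38.9 CPM in Fosl2cKO 1 and 47.3 CPM in Fosl2cKO 2. The 2 groups did not overlap, the libraries of a group lay within 1.22-fold of each other, and the fitted change was 1.70 ± 0.24 with an adjusted p of 0.384 by edgeR. DESeq2 gave an adjusted p of 6.32e-04 for the same change (1.71). After thinning, the share of mural-like GCs with an Hsd11b2 UMI was 2.38% in Fosl2F/F 1, 2.49% in Fosl2F/F 2, 6.88% in Fosl2cKO 1 and 7.48% in Fosl2cKO 2, and in endothelial-like cells 0.893%, 0.871%, 0% and 0%. In early theca-like cells the level was 21.6 CPM in Fosl2F/F 1, 25.2 CPM in Fosl2F/F 2, 62.3 CPM in Fosl2cKO 1 and 52.8 CPM in Fosl2cKO 2, again without overlap (log2 fold change 1.19 ± 0.24 with an adjusted p of 0.241 by edgeR), and in theca-like cells 6.55 CPM in Fosl2F/F 1, 10.0 CPM in Fosl2F/F 2, 15.7 CPM in Fosl2cKO 1 and 25.2 CPM in Fosl2cKO 2 (log2 fold change 1.25 ± 0.36 with an adjusted p of 0.767 by edgeR). In cumulus-like and growing follicle-like GCs, with the highest means of the gene, Fosl2cKO 2 was the highest library. The groups overlapped there (113, 50.3, 49.2 and 155 CPM and 105, 66.9, 88.8 and 191 CPM), and the changes were 0.27 ± 0.49 and 0.62 ± 0.38 (adjusted p = 1 and 1 by edgeR). Over all granulosa-like cells Hsd11b2 measured 49.3 CPM in Fosl2F/F 1, 39.1 CPM in Fosl2F/F 2, 54.3 CPM in Fosl2cKO 1 and 122.9 CPM in Fosl2cKO 2. There Fosl2cKO 1 lay close to Fosl2F/F 1 (log2 fold change 0.98 ± 0.39). In atretic-like GCs the groups overlapped, at 28.3, 22.7, 17.8 and 70.9 CPM in the same order. Interstitial-like cells were at 1.22 to 2.72 CPM, a range that overlapped that of endothelial-like cells (1.66 to 3.86 CPM).

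**Figure D4:**
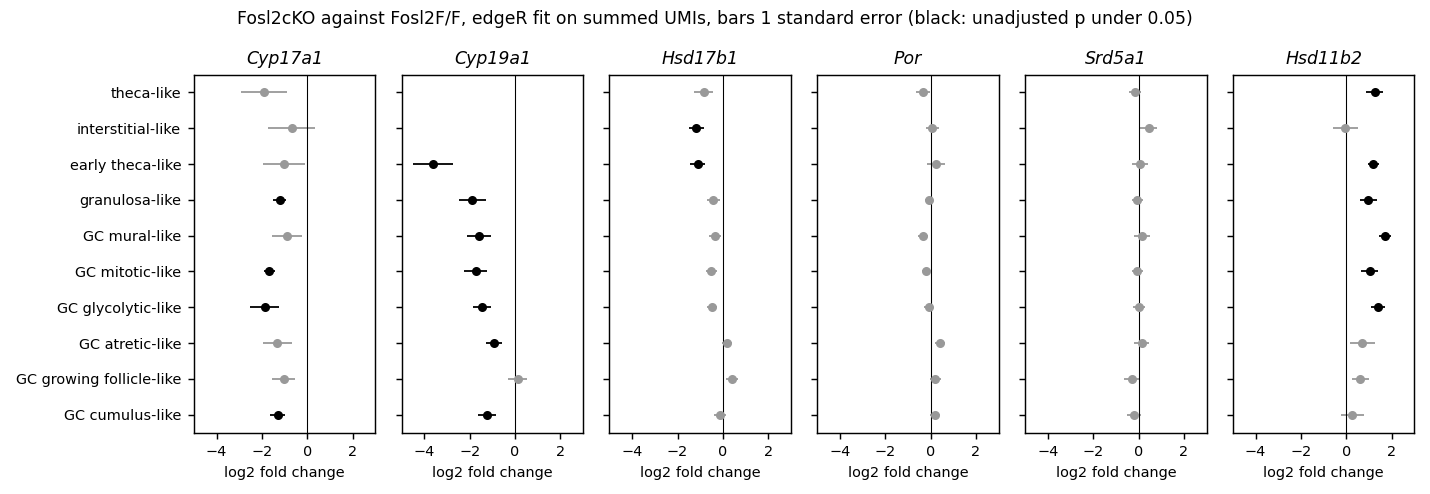
Fitted log2 fold change of each gene, libraries labelled Fosl2cKO against Fosl2F/F libraries, by class and GC subclass, with bars of 1 standard error (edgeR on summed UMIs, 2 libraries a group); black points have an unadjusted p under 0.05, and no point passed the threshold after adjustment over all genes. Cyp19a1 lies below 0 in every class drawn in which it was tested except growing follicle-like GCs, and Hsd11b2 above 0 in every class drawn except interstitial-like cells.

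Whether theca-like and granulosa-like cells changed differently was tested on the difference between the 2 classes within each library. Of the 5 members that could be tested, 0 passed (limma; 0 had an unadjusted p under 0.05), and 0.00784% of 12754 genes did. The difference of the log2 fold changes, theca-like minus granulosa-like, was -1.999 ± 1.60 for Cyp17a1 (standard error) and 0.32 ± 0.36 for Hsd11b2. The value for Cyp17a1 turned to 0.78 without Fosl2cKO 1. Without Fosl2cKO 2, which leaves 1 library in the group, it was -4.78. The value for Hsd11b2 turned to -0.14 without Fosl2F/F 1.

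The rest of the pathway was followed through 47 listed genes that the files hold: cholesterol uptake and precursor synthesis, electron donors, other hydroxysteroid dehydrogenases, androgen reduction, glucocorticoid conversion, steroid clearance, gonadotropin receptors and regulators, and sex steroid receptors. In granulosa-like cells 0 of 40 tested list genes passed the threshold (edgeR) and 6 had an unadjusted p under 0.05, and their median log2 fold change was -0.16 against -0.02 over all genes tested, but 0.020 against 0.021 without Fosl2F/F 1. In theca-like cells 0 of 38 passed and 6 had an unadjusted p under 0.05 (median -0.26 against 0.00, and -0.053 against 0.026 without Fosl2F/F 1). In interstitial-like and early theca-like cells 1 of 40 and 1 of 36 passed, both times Akr1c18, which degrades progesterone in regressing luteal cells (log2 fold change -3.75 ± 0.71 and -6.02 ± 0.65, adjusted p = 0.0609 and 0.00853 by edgeR). The early theca-like change rests on 0 and 3 UMIs in Fosl2cKO 1 and Fosl2cKO 2, against 59 and 119 in Fosl2F/F 1 and Fosl2F/F 2. In interstitial-like cells Akr1c18 had 124, 82, 32 and 0 UMIs in the order Fosl2F/F 1, Fosl2F/F 2, Fosl2cKO 1 and Fosl2cKO 2. The interstitial-like count of list genes called fell to 0 at an adjusted p under 0.05, with doublets kept and with cells over 2000 UMIs. The early theca-like count stayed at 1 under these settings. In the Fosl2F/F libraries most Akr1c18 UMIs lay in luteal-like cells, where it measured 2650 CPM in Fosl2F/F 1, 2287 CPM in Fosl2F/F 2, 166 CPM in Fosl2cKO 1 and 1.65 CPM in Fosl2cKO 2. The last 2 values rest on 15 and 32 cells. Akr1c18 is on the marker list that named the luteal-like class, so its place there was in part set by the naming. The unnamed cluster 11 of Fosl2F/F 1 held 2208 CPM, and in the libraries labelled Fosl2cKO granulosa-like cells held more of its UMIs (204 and 55) than luteal-like cells (64 and 1). In other classes its level was likewise low in the libraries labelled Fosl2cKO, as in macrophage-like cells (16.4, 20.7, 0.689 and 0 CPM). Interstitial-like cells held 24.44, 7.615, 1.956 and 0 CPM and early theca-like cells 6.971, 9.503, 0 and 0.209 CPM in the same order. Early theca-like cells thus lay below macrophage-like cells in every library but Fosl2cKO 2, and interstitial-like cells did so in Fosl2F/F 2 only. The part of free RNA from other cells in these calls was not tested. DESeq2 called 4, 1, 1 and 4 list genes in granulosa-like, theca-like, interstitial-like and early theca-like cells, beside 1.01%, 0.226%, 0.301% and 0.436% of all genes. Lhcgr passed in the unnamed GC cluster 7, where 0.0467% of all genes were called (log2 fold change -2.53 ± 0.51, adjusted p = 0.0884 by edgeR). The count of list genes called there fell to 0 with DESeq2, at an adjusted p under 0.05 and with cells over 2000 UMIs.

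The genes whose pattern over the 14 named classes was most like that of each member were found by the correlation of mean log2(CPM + 1) among 11808 other genes. The points are classes that share libraries, so the values are a description. For Cyp17a1 they were Sftpc (r = 0.961), Gsta2 (r = 0.94), Stk32a (r = 0.929). For Cyp19a1 they were Inhbb (r = 0.982), Amh (r = 0.98), Cnmd (r = 0.94), and for Hsd17b1 Inhba (r = 0.965), Csrnp3 (r = 0.962), Fshr (r = 0.949). For Por they were Tmem176a (r = 0.895), Mob3b (r = 0.865), Gm17056 (r = 0.864), for Srd5a1 Serpina5 (r = 0.96), Bpifb4 (r = 0.955), Gatb (r = 0.946), and for Hsd11b2 Vcan (r = 0.876), Rbmxl1 (r = 0.864), Thbs4 (r = 0.852). Inhbb and Amh, beside Cyp19a1, and Inhba and Fshr, beside Hsd17b1, are known genes of granulosa cells. Inhbb, Amh and Fshr are also on the list that named the granulosa-like class, so their likeness was in part set by the naming.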

How the data were processed

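Dissociated ovaries were run on the 10x Genomics 3′ platform. The deposited values are UMI counts per gene and cell, which the authors made with Cell Ranger against GRCm38 (mm10). The matrix headers give version 7.1.0, and the submitters' notes also name Seurat 4.1.0. The study's methods name CellBender for ambient RNA, and whether the deposited counts were so corrected is not given in the sources used here.

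A cell was kept with 500 genes or more and over 1000 UMIs, of which less than 10% were mitochondrial and less than 0.1% from haemoglobin genes. The cells with the highest Scrublet scores (Scanpy 1.11.5, Python 3.11.15) were then removed as doublets at 0.8% per 1000 cells, which took 5.75 to 19.4% of a library. Libraries were normalized with SCTransform and integrated by reciprocal PCA (Seurat 5.3.0, R 4.3.3) on 2994 genes without the 6 members, with 30 components, and clustered at resolution 0.8 (granulosa-like cells again at 0.5). Clusters were named from marker lists, with limits chosen once the clusters were known. The members and all lists were chosen with earlier results of these data known.

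UMIs were summed by class and library, and the library was the replicate. The test was edgeR 4.0.16 (quasi-likelihood, TMM, filterByExpr, Benjamini-Hochberg over all genes tested), for classes with 20 or more cells in every library, with DESeq2 1.42.0 as an alternative and limma 3.58.1 for differences between classes. The code was tested on simulated data. Groups and replicate numbers came from the sample titles. Same-numbered libraries did not deviate together (correlations from -0.164 to 0.104 in 4 classes), so the numbers were not taken to pair them. Shares of cells were taken after each cell was thinned to 2000 UMIs, leaving out shallower cells. CPM are counts per 1e6 UMIs of the class. Named were the 6 members, called genes of the pathway list, the 3 genes most like each member (with at least 20 CPM in 1 class) and Fosl2. Alternatives were other clusterings, filters, scalings, tools and each library left out.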

Additional observations from a re-analysis of the deposited data

Results flagged for a closer look

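The opposite directions below were seen as non-overlapping groups, and the differences themselves were not tested. Hsd17b1 was higher in both libraries labelled Fosl2cKO in growing follicle-like GCs (412, 402, 717 and 437 CPM in Fosl2F/F 1, Fosl2F/F 2, Fosl2cKO 1 and Fosl2cKO 2, a log2 fold change of 0.41) and lower in both in interstitial-like, early theca-like and glycolytic-like cells. The log2 fold changes in the last 3 were -1.18, -1.12 and -0.47, which lay 1.59, 1.53 and 0.88 below that of growing follicle-like GCs. Interstitial-like and early theca-like cells held Hsd17b1 near the level of endothelial-like cells.

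Por was lower in both libraries labelled Fosl2cKO in mural-like GCs (log2 fold change -0.34) and higher in both in atretic-like, cumulus-like and growing follicle-like GCs (0.40, 0.19 and 0.20). Those 3 values lay 0.74, 0.529 and 0.541 above the value in mural-like GCs. The groups were close in these 3 subclasses, where Fosl2F/F 2 and Fosl2cKO 2 were the nearest libraries. They measured 27.4 and 30.4 CPM in atretic-like, 39.3 and 40.2 CPM in cumulus-like and 24.6 and 25.6 CPM in growing follicle-like GCs. With 2 libraries a group, 28.7 to 41.9% of all genes had groups that did not overlap in a class.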

How the results depend on the processing

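In granulosa-like, theca-like, interstitial-like and early theca-like cells and the 8 GC subclusters (6 named and 2 unnamed), members were called in 0 cases by the main edgeR test, and clustering settings (other resolutions, no integration, the members among the features, doublets kept, over 2000 UMIs a cell), scaling without TMM and the stricter threshold left this at 0 in those of these classes that were tested under the setting (the GC subclusters were not remade for the other clusterings). The count was 2, 3, 2 and 3 in granulosa-like, theca-like, interstitial-like and early theca-like cells and 12 over the GC subclusters with no filter on low counts, beside 1.01 to 3.53% of all genes in the named ones, and with DESeq2 1 in granulosa-like, 2 in early theca-like and 4 over the GC subclusters. With the replicate block it was 2 in early theca-like cells, beside 0.436% of all genes, 1 over the GC subclusters (in glycolytic-like GCs, beside 0.82%), and in the unnamed cluster 11 it was 2, beside 1.89% of all genes called. The replicate block changed no count of members in the other classes tested. With the numbers paired crosswise, chosen after seeing the data, it was 1, 2 and 4 in interstitial-like cells, early theca-like cells and the GC subclusters (beside 0.603%, 1.10% and, in mitotic-like GCs with 3 of the 4, 5.11% of all genes), and 7 for the pathway list. For the difference between theca-like and granulosa-like cells, the value of Cyp17a1 ran from -4.78 without Fosl2cKO 2 to 0.78 without Fosl2cKO 1. Leaving out 1 library brought members past the threshold in some class fits. These were granulosa-like cells without Fosl2cKO 1, and theca-like and early theca-like cells without either library labelled Fosl2cKO. They were also interstitial-like cells without Fosl2F/F 2 or Fosl2cKO 2, and the GC subclusters without Fosl2F/F 2, Fosl2cKO 1 or Fosl2cKO 2. The share of all genes called rose in most of these fits too: it was 0.741% in granulosa-like cells without Fosl2cKO 1, 0.728% and 1.19% in theca-like and 1.46% and 1.09% in early theca-like cells without Fosl2cKO 1 and Fosl2cKO 2, 2.58% and 0.894% in interstitial-like cells without Fosl2F/F 2 and Fosl2cKO 2, and up to 1.92% in a named GC subclass. Pathway list calls summed over the 4 classes other than the GC subclusters, 2 in the main test, were 10 with DESeq2, 17 without the filter, 8 with the replicate block, 1 with cells over 2000 UMIs, without TMM and at the stricter threshold alike, and 1 to 14 with 1 library left out (the highest without Fosl2cKO 2, the lowest without Fosl2F/F 1). The cause of these changes was not tested, except that a left-out library leaves 1 library in a group, whose spread is then assumed to be that of the other group.

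Leaving out 1 library turned the log2 fold change of Cyp17a1 in interstitial-like cells (-8.05 to 0.32, reversed without Fosl2cKO 1), Hsd17b1 in granulosa-like (-0.78 to 0.11, reversed without Fosl2F/F 1), Srd5a1 in interstitial-like (-0.062 to 1.29, reversed without Fosl2F/F 1) and Por in theca-like cells (-0.63 to 0.0568, reversed without Fosl2F/F 2). Of 282 values of 21 fold changes over 16 settings, 233 kept direction and side of the threshold, 45 passed the threshold, and 4 reversed. Luteal-like cells could be tested with doublets kept, when Cyp17a1 was called (log2 fold change -2.71, adjusted p = 0.0787 by edgeR, with 9.72% of all genes called), and without Fosl2cKO 1, when Hsd17b1 was (-1.83, adjusted p = 0.0354 by edgeR, with 6.95% of all genes called). With 2 libraries a group, the spread of a library pair sets what the test can call, and low counts, as of Cyp19a1 outside GCs, limit it further.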

Other observations

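In the unnamed cluster 11, led by Runx2, Hsd17b7 and Lhcgr, Hsd11b2 measured 9.79, 7.84, 10.3 and 67.1 CPM in Fosl2F/F 1, Fosl2F/F 2, Fosl2cKO 1 and Fosl2cKO 2, so that Fosl2cKO 2 alone was high. Por there measured 49.0, 46.1, 77.8 and 37.3 CPM. Fosl2F/F 1 had 65 cells of this cluster, and its Por value rests on 10 UMIs.

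Over the 14 named classes, Fosl2cKO 1 alone held the lowest Cyp17a1 level of the 4 libraries in 12. The exceptions were granulosa-like cells, where Fosl2cKO 2 was lowest, and B lymphocyte-like cells, where Fosl2F/F 2 and Fosl2cKO 1 both held 0 CPM.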
